A study of Mus musculus with 6 samples.

Results

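The axon guidance genes Slit1 and Epha7 each had a circular RNA (circRNA) whose level was followed in the hippocampus of aged mice after a bone fracture operation. The array held 14236 circRNA probes, and 2 of them are described here, 1 for the Slit1 circRNA mmu_circRNA_32616 (probe ASCRP4009367) and 1 for the Epha7 circRNA mmu_circRNA_36575 (probe ASCRP4002021). Both were chosen because their signal was higher in the surgery group than in the control group, so that difference is given below as a description, and the thresholds it met or missed are no independent evidence for it. Both probes passed the filter on dim probes, and both were detected on all 6 arrays.

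The study compared circRNAs in the hippocampus between a surgery group, a mouse model of postoperative delirium, and a control group. All 6 mice were male C57BL/6J animals aged 12 months. In the 3 mice of the surgery group, the tibia of the left hind leg was fractured and fixed with an intramedullary nail, under isoflurane and a subcutaneous analgesic. The 3 mice of the control group received the same isoflurane and analgesic and had no fracture, so that anesthesia and analgesia were common to both groups. Tissue was taken at 72 h, and each array held the RNA of 1 mouse. Both groups also had fear training with sound and foot shock before the operation and behavioral tests after it. The groups thus differed by the fracture surgery, compared at a single time and in 1 sex. The array mice were drawn at random after a surgery mouse had been left out because the model had failed in it. The arrays of the groups also differed in their position on the slide, as given below.

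A circRNA forms when the end of an exon is joined backward to the start of an upstream exon of the same transcript, which leaves a closed ring without free ends. RNase R digests linear RNA from its free end and spares such rings, and it was used before labeling. The signals below are therefore read as those of the rings and not of the messenger RNA or protein of the same genes. How complete the digestion was, and so whether linear RNA added to the signals, was not tested. Slit1 encodes a secreted protein that repels growing axons through the Robo receptors. Epha7 encodes a receptor tyrosine kinase for the membrane-bound ephrin-A ligands, and Eph receptors and ephrins are known for sorting hippocampal projections and shaping dendrites and spines.

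The Slit1 circRNA was annotated as exonic, from transcript NM_015748. The Slit1 gene lies at chr19:41597824-41747275 of the GRCm38 mouse genome and spans 149452 bases. Neither the ends of its ring nor its probe sequence was available for use here. The Epha7 circRNA was also exonic, from transcript NM_010141, and its ends lay at chr4:28817445-28943378 on the plus strand of GRCm38. These ends enclose 125934 bases, or 81.5% of the Epha7 gene at chr4:28813066-28967503. Introns between them count in this span, so it is not the length of the ring.

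The sequence by which the array recognized the Epha7 ring is shown first, since it is what the Epha7 values measure. It is followed by the probes for the circRNAs of its relative Epha5, of the Slit1 relative Slit3, of the netrin family member Ntng2, and of Srgap1, whose protein acts inside the cell below Robo. Each is 60 bases long and is printed 5′ to 3′ in lower case, with no part marked.
Epha7 mmu_circRNA_36575: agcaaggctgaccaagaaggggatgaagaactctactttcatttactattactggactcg
Epha5 mmu_circRNA_001254: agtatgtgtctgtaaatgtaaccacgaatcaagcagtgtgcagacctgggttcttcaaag
Slit3 mmu_circRNA_23201: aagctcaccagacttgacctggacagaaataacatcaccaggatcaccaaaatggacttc
Ntng2 mmu_circRNA_33225: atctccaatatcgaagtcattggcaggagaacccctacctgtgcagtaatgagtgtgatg
Srgap1 mmu_circRNA_22742: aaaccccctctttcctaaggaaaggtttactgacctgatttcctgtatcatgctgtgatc
The Epha7 probe had a G and C content of 43.3%, which equals the median of the 1257 probes whose sequence was read (quartiles 41.7% and 45%). The Epha5 and Srgap1 probes had the same content as the Epha7 probe, the Slit3 probe had 45% and the Ntng2 probe 46.7%.

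The Slit1 circRNA, from the gene of the secreted ligand, differed more between the groups than the Epha7 circRNA did. Its log2 normalized intensity was 6.62, 6.70 and 6.54 in surgery replicates 1 to 3 and 6.02, 5.55 and 5.63 in control replicates 1 to 3. All 3 surgery mice were above all 3 control mice, and the lowest surgery value exceeded the highest control value by 0.52 on the log2 scale. That gap was wider than the whole range within either group, which was 0.17 in the surgery group and 0.47 in the control group. The mean was 6.62 ± 0.08 (SD, n = 3) after surgery and 5.73 ± 0.25 (SD, n = 3) in controls, a log2 difference of 0.89 with a standard error of 0.13, or 1.85-fold.

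The Epha7 circRNA, from the gene of the receptor, stood at 6.29, 6.25 and 6.12 in the surgery mice and at 5.99, 5.89 and 5.56 in the control mice. These groups did not overlap either, but they came close, with 0.13 between surgery replicate 3 and control replicate 1. The range was 0.16 within the surgery group and 0.43 within the control group, so here the gap was smaller than the spread inside each group. The mean was 6.22 ± 0.09 (SD, n = 3) after surgery against 5.82 ± 0.22 (SD, n = 3) in controls. The log2 difference was 0.41 with a standard error of 0.12, or 1.32-fold, which placed Epha7 just inside the 1.3-fold threshold named in the methods.

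**Figure D1:**
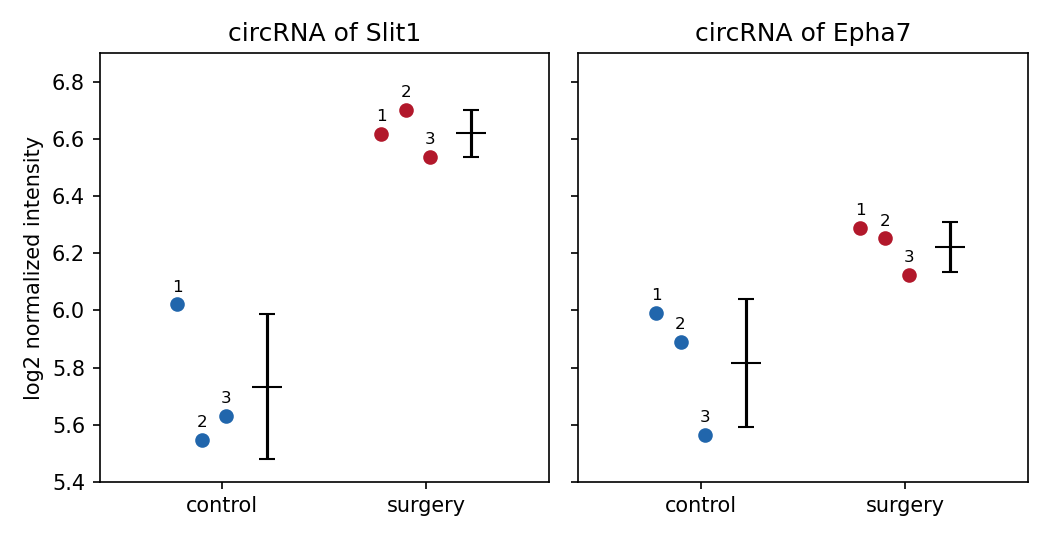
Log2 normalized intensity of the Slit1 circRNA (left) and the Epha7 circRNA (right) in each array, with replicate numbers beside the points and the group mean ± SD (n = 3) as a black bar. The surgery arrays lie above the control arrays in both panels, by at least 0.52 for Slit1 and 0.13 for Epha7, and the control arrays are the more scattered.

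Both probes met the methods' rule of a fold change of at least 1.3 with an unadjusted p of at most 0.05, taken here from limma. Of the 12499 circRNA probes tested, 766 (6.13%) met it in either direction and 524 (4.19%) with the higher level after surgery. Neither of the 2 probes passed limma's test at an adjusted p under 0.05, which 6 of 12499 probes (0.0480%) did. Every surgery array was above every control array for 1685 probes (13.5%), Slit1 and Epha7 among them. The Slit1 probe met the fold change rule under all 14 alternatives and with each of the 6 arrays left out. It passed the adjusted threshold under 7 of the 14 and without control replicate 1. The Epha7 probe fell below 1.3-fold, and so lost its call, under 3 of the 14, at 1.26-fold without normalization, 1.20-fold with a normexp offset of 50 and 1.06-fold with slide column as a covariate. It also lost the call without surgery replicate 1 (1.29-fold) and without control replicate 3 (1.22-fold), and it passed the adjusted threshold in none of these alternatives, left-out arrays included. Because the probes were picked on this contrast, these counts place them among the others and give no evidence beyond that. By size of difference the Slit1 circRNA ranked 4 of 12499 from the top and the Epha7 circRNA 432, while the median difference over all tested probes was -0.01.

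Both circRNAs were of middling brightness on the array. Averaged over the 6 arrays, 58.8% of tested probes were dimmer than the Slit1 probe and 51.0% were dimmer than the Epha7 probe. Among the 500 probes closest in level to Slit1, log2 differences ran from -0.29 at the 5th percentile to 0.37 at the 95th, so the difference of 0.89 lay outside that band. For the 500 probes nearest Epha7 the same percentiles were -0.27 and 0.39, which puts its difference of 0.41 at the edge. The scatter within groups was above the usual for both. The residual SD was 0.19 for Slit1 and 0.17 for Epha7, against a median of 0.12 in each set of like level.

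The raw signals showed the same order of the groups before any normalization between arrays. The median signal of the Slit1 spot was 90, 114.5 and 98 intensity units in the surgery mice and 64, 42 and 61.5 in the control mice. Its mean was 101 ± 12.5 (SD, n = 3) against 55.8 ± 12.0 (SD, n = 3), a ratio of 1.81. The surgery arrays thus stood clear of the controls without rescaling, and control replicate 2 was the dimmest of all 6.

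For the Epha7 spot the raw signal was 70, 79 and 72 in the surgery mice and 63, 53 and 59 in the control mice. The mean was 73.7 ± 4.73 (SD, n = 3) against 58.3 ± 5.03 (SD, n = 3), a ratio of 1.26. Raw Epha7 values were therefore also without overlap, with the lowest again in control replicate 2, whereas after normalization the lowest was control replicate 3.

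Neither spot was bright compared with the glass around it. The local background of the Slit1 spot was 12 to 14 units on all arrays, so its signal was 6.43, 9.54 and 8.17 times background after surgery and 4.92, 3.11 and 4.73 times background in controls. For Epha7 the local background was 10 to 14 units and the ratios were 5.19, 6.08 and 5.54 after surgery and 5.25, 3.79 and 5.90 in controls. Measured this way the Epha7 groups overlapped, since control replicate 3 (5.90) lay above surgery replicates 1 and 3. The Slit1 groups remained apart.

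The array also carried 77 negative control spots, and their median signal was 23, 23 and 24 units for the surgery mice against 28, 22.5 and 30 for the control mice. Both circRNAs were above these medians everywhere. The brightest negative control spot reached 60 units on control replicate 2, above the Slit1 signal of 42 and the Epha7 signal of 53 there. On the other arrays the brightest negative control spot stayed between 27 and 44 units, below both circRNAs. The scanner software nonetheless marked both probes as well above background on all 6 arrays.

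**Figure D2:**
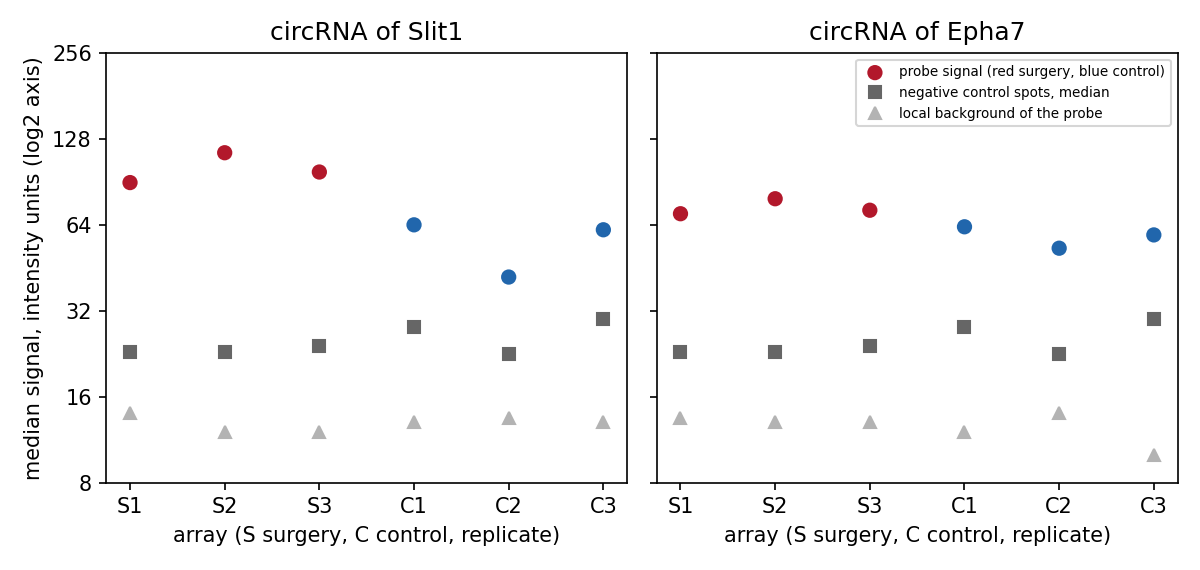
Median signal of the Slit1 spot (left) and the Epha7 spot (right) on each array, in intensity units on a log2 axis, with the probe's local background and the median of the 77 negative control spots. The Slit1 signal runs from 42 to 114.5 and the Epha7 signal from 53 to 79, against negative control medians of 22.5 to 30.

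After the software's own background subtraction and spatial detrending, the Slit1 signal was 66.1, 87.6 and 73.4 units in the surgery mice and 34.7, 18.7 and 30.7 in the control mice. The Epha7 signal was 45.9, 53.8 and 44.0 against 33.8, 31.8 and 27.3. Both groups stayed apart on this scale for each circRNA. Within each array, the Slit1 signal lay at the 76.4, 78.4 and 74.5 percentile of circRNA probes after surgery and at the 56.5, 31.8 and 37.0 percentile in controls. The Epha7 signal lay at the 67.0, 65.7 and 60.9 percentile after surgery and at 55.3, 50.3 and 32.9 in controls. The control mice therefore varied in rank by more than the surgery mice did for both circRNAs.

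The 6 arrays shared 1 slide, and their position on it was not balanced between the groups. The surgery group occupied columns 1, 1 and 2 of the slide and the control group columns 2, 3 and 4, a mean column of 1.33 against 3.00. The Epha7 level followed this order without exception, from 6.29 and 6.25 in column 1 through 6.12 and 5.99 in column 2 to 5.89 in column 3 and 5.56 in column 4. Such a fall at each step of column was seen in 327 of the 12485 probes with a value on every array (2.62%), and a rise at each step in 177 (1.42%). The Slit1 level did not follow it throughout, since column 4 (5.63) was above column 3 (5.55).

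Column 2 was the only column that held both groups. There, surgery replicate 3 exceeded control replicate 1 by 0.52 for Slit1 and by 0.13 for Epha7 on the log2 scale, from a single array on each side. The surgery array lay in slide row 2 and the control array in slide row 1. With slide column as a covariate in limma, the log2 difference was 0.59 (SE 0.17) for Slit1 and 0.08 (SE 0.15) for Epha7. The fitted change per column was -0.18 (SE 0.08) for Slit1 and -0.20 (SE 0.07) for Epha7. The Epha7 difference was thus within its standard error once column was allowed for, and the Slit1 difference was reduced but larger than its error. In slide row 1, which held surgery replicate 1 and all 3 control arrays, the difference was 0.89 for Slit1 and 0.47 for Epha7. In that row the surgery array lay in column 1 and the control arrays in columns 2, 3 and 4. Columns 1, 3 and 4 each held 1 group, and slide row 2 held surgery arrays only, so there position and group cannot be told apart. Neither the contrast in column 2 nor that in row 1 held both row and column fixed.

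**Figure D3:**
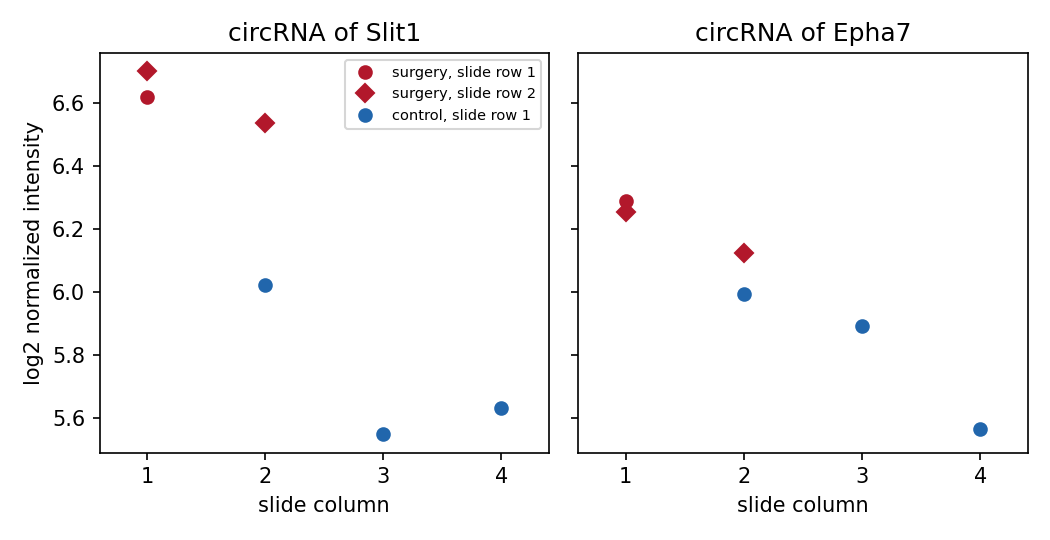
Log2 normalized intensity of the Slit1 circRNA (left) and the Epha7 circRNA (right) against the column of the slide on which the array lay, with slide row as the shape of the point. Epha7 falls at each step from 6.29 and 6.25 in column 1 to 5.56 in column 4, and in column 2 the surgery array exceeds the control array by 0.52 for Slit1 and 0.13 for Epha7. Those arrays of column 2 lie in different slide rows.

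Within the arrays, the spots around the Slit1 probe were all below it in difference, and most of those around the Epha7 probe were. The Slit1 spot lay in row 6, column 71 of the array, and its 50 nearest circRNA spots had a median log2 difference of -0.06 with a highest value of 0.39, below that of Slit1. The Epha7 spot lay in row 100, column 33, and its 50 neighbors had a median of 0.06. Of these neighbors, 2 were as high as Epha7 or higher, up to 0.49. By the fold change rule, 1 of the 50 Slit1 neighbors and 2 of the 50 Epha7 neighbors were called higher, against 4.19% of all tested probes.

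Across the 6 arrays the Slit1 and Epha7 circRNAs had a Pearson correlation of 0.886, given as a description, since the points share the group difference and the slide. Each of the pair was compared with 1257 probes, the other of the pair and the 1256 annotated probes other than Epha7. Of these, 161 were correlated at least as closely with Slit1, and 94 with Epha7, as the pair were with each other. Each count includes the other of the pair. The annotated probes were limited to circRNAs whose mean the study's own processing had put higher in the surgery group, which favors a close correlation. Among them, the profiles most like Slit1 were those of the circRNAs of Atrn, Npas3 and Taok3. Their Pearson correlations with Slit1 were 0.998, 0.995 and 0.992 over the 6 arrays. Their log2 differences between surgery and control were 0.50, 0.39 and 0.35, each below that of Slit1. Most like Epha7, among the 1257 probes compared with it, were the circRNAs of Pibf1, Rtn3 and Birc6, with correlations of 0.991, 0.988 and 0.986. Their log2 differences were 0.20, 0.34 and 0.52.

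To place the pair among other genes of their pathway, 179 axon guidance genes were listed by role, 43 ligands, 50 receptors or membrane proteins and 86 intracellular signaling proteins. Apart from Slit1 and Epha7, 21 of these genes had a circRNA among those whose host gene was read, with 26 circRNAs in all. The annotation read here was limited to circRNAs whose mean the study's own processing had put higher in the surgery group, so a positive sign was favored by that choice, and 1199 of the 1256 annotated probes other than Epha7 had one in the processing used here. It named the host gene of 1257 of the 14236 circRNA probes, so the counts below cover the circRNAs read and not the whole pathway, whose other circRNAs were not analysed here. All 26 passed the filter on dim probes, and 18 were detected on all 6 arrays. Their log2 differences ran from 0.03 to 0.47 with a median of 0.19, all below the 0.89 of Slit1. Those of Ablim1 (0.47, SE 0.26, not called) and Srgap1 (0.43) were above the 0.41 of Epha7, and the others were below it. The median of the 1256 annotated probes other than Epha7 was 0.14.

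By the rule of 1.3-fold and unadjusted p, 1 of the 26 read was called higher and 0 lower, against 106 of the 1256 annotated probes (8.44%). The 1 called was that of Srgap1, whose probe passed the filter on dim probes only through the surgery group, so the count is a description. This count depended on the processing. It was 0 with detection required on all 6 arrays (360 of all 9214 probes called higher) or with a normexp offset of 50 (171 of 12499). It was 8 without normalization (973 of 12499) or with the processed signal scaled to the 75th percentile (1097 of 12499). With 1 array left out it ran from 1 to 6, with 6 without control replicate 1 (767 of all 12499 probes called higher). It was 3 without surgery replicate 1 (634), surgery replicate 2 (423) or control replicate 2 (580). At an adjusted p under 0.05 in limma, 0 of the 26 passed, and 7 had an unadjusted p under 0.05, as did 309 of the 1256 annotated probes (24.6%). The surgery and control arrays did not overlap for 5 of them, against 357 of the 1256 (28.4%). These 5 were circRNAs of Srgap1, Ptpn11, Trpc4, Ptk2 and Enah, and all but Srgap1 were named after their values were seen.

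Besides Slit1, 2 ligand genes had a circRNA among those read. Of these 2, 0 were called, against 8.44% of the annotated probes, and so few cannot show a difference from that share. The Slit3 circRNA, from a gene of the same secreted family, had log2 intensities of 5.55, 5.45 and 5.77 after surgery and 5.34, 5.66 and 5.32 in controls. These groups overlapped, with a log2 difference of 0.15 (SE 0.12, limma adjusted p = 0.508). The Slit3 ring lay at chr11:35171573-35234908 on the plus strand. The Ntng2 circRNA, from a gene of a membrane-anchored netrin, stood at 6.35, 6.43 and 6.16 against 6.25, 6.18 and 6.24. It overlapped as well, with a difference of 0.09 (SE 0.10, limma adjusted p = 0.614). Its ring lay at chr2:29227578-29228221 on the minus strand.

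The 8 circRNAs of 6 receptor or membrane protein genes had a median log2 difference of 0.24, from 0.03 to 0.36. The median of the annotated probes was 0.14. Of the 8, 0 were called, against 8.44% of the annotated probes, and neither difference was tested. The Epha5 circRNA, the other Eph receptor ring read, stood at 7.46, 7.22 and 7.19 after surgery and 7.24, 7.19 and 7.23 in controls. The groups overlapped, and the difference was 0.07 (SE 0.10, limma adjusted p = 0.720), so the Epha7 difference of 0.41 was not seen at Epha5. The difference between the Epha7 and Epha5 values was not tested.

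Dcc, the netrin receptor, had 2 circRNAs in the annotation read. For mmu_circRNA_31939 the log2 intensity was 5.78, 5.55 and 5.72 after surgery and 5.61, 5.32 and 5.08 in controls, a difference of 0.35 (SE 0.14, limma adjusted p = 0.188). For mmu_circRNA_006690 it was 6.76, 6.75 and 6.72 against 6.84, 6.25 and 6.43, a difference of 0.23 (SE 0.14, limma adjusted p = 0.355). The groups overlapped for both Dcc rings, and neither was called.

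The 16 circRNAs of 13 intracellular signaling genes had a median log2 difference of 0.13, from 0.03 to 0.47, against a median of 0.14 for the annotated probes. Of the 16, 1 was called, against 8.44% of the annotated probes. The 1 called by the fold change rule was from Srgap1, which encodes a GTPase-activating protein that binds Robo and carries Slit signals to the cytoskeleton. It stood at 5.44, 5.67 and 5.67 after surgery and at 5.23, 5.25 and 5.01 in controls, without overlap. This probe was dim, detected on all 3 surgery arrays and on 1 control array, so it passed the filter only through the surgery group and 2 of its 3 control values were not detected. The measured log2 difference of 0.43 rests on those values, so it is given as a description only. The Srgap1 ring lay at chr10:121823037-121855526 on the minus strand.

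**Figure D4:**
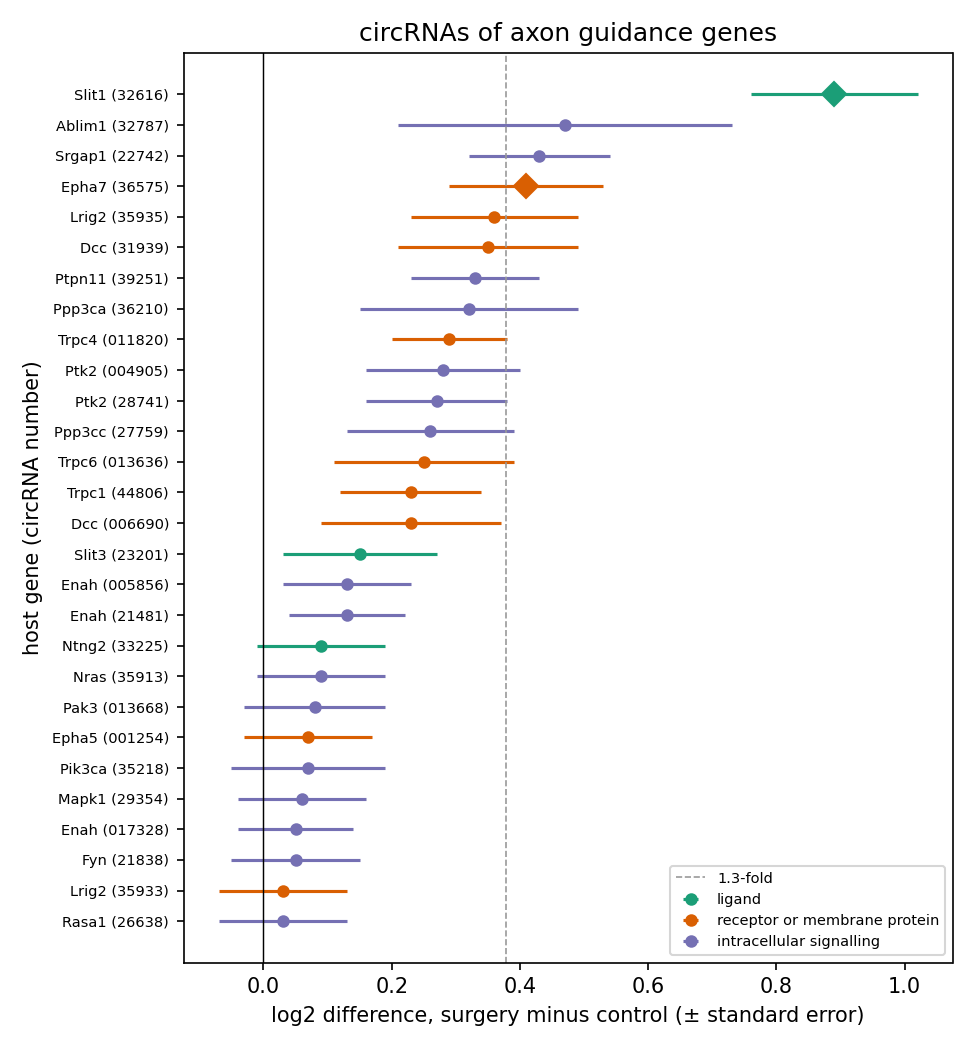
Log2 difference between surgery and control, with the standard error from limma, for each axon guidance circRNA read, named by host gene and circRNA number and colored by role. Slit1 and Epha7 are drawn as large diamonds at 0.89 and 0.41, the other 26 circRNAs lie between 0.03 and 0.47, and the dashed line marks 1.3-fold.

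The arrays were made from whole hippocampus, where fewer cells of a type and less RNA per cell cannot be told apart. Of 33 listed marker genes of hippocampal cell types, 2 had a circRNA among those read, and neither of these was at 0 or undetected on any array. The circRNA of Slc17a7, the vesicular glutamate transporter of excitatory neurons, differed by 0.12 (SE 0.19, limma adjusted p = 0.75). That of Ugt8a, an enzyme of myelin lipid synthesis in oligodendrocytes, differed by 0.23 (SE 0.11, limma adjusted p = 0.269). The summed normalized intensity of the 2 ranged from 269 to 319 in the surgery group and from 213 to 339 in the control group, which overlapped. The part of cell composition in the Slit1 and Epha7 values was not tested, as no marker ring of astrocytes, microglia, endothelium, inhibitory neurons or choroid plexus was read.

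The sign of both differences was positive under each way of processing tried, but their size was not equally steady. For Slit1 the log2 difference ran from 0.59 with slide column as a covariate to 1.41 with the quantile normalized processed signal. For Epha7 it ran from 0.08 to 0.62 under the same 2 alternatives. With each array left out in turn, Slit1 stayed between 0.80 and 1.05 and Epha7 between 0.29 and 0.50. The number of arrays, 3 in each group, limits the precision of all these values.

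**Figure D5:**
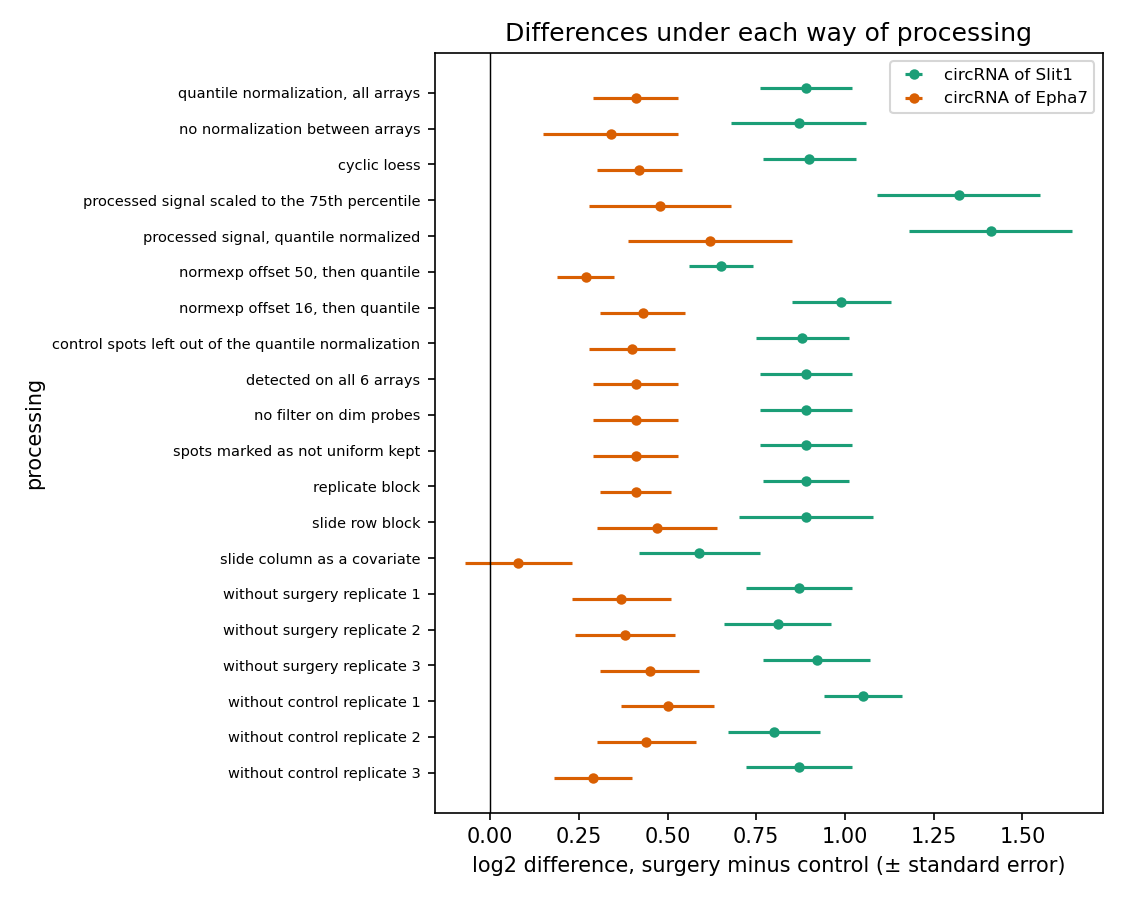
Log2 difference between surgery and control, with its standard error from limma, for the Slit1 and Epha7 circRNAs under each way of processing and with each array left out. The Slit1 values lie between 0.59 and 1.41 and the Epha7 values between 0.08 and 0.62, with the lowest of each at the slide column covariate.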

How the data were processed

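Hippocampal RNA of 3 surgery and 3 control mice was digested with RNase R, labeled with Cy3 and hybridized by the authors to a one-color circular RNA array (Arraystar), read with Agilent Feature Extraction. For each of 15712 spots per array the authors deposited 3 kinds of intensity, the median signal and the local background, both not normalized between arrays, and a processed signal that had been background subtracted and detrended, with marks of 0 or 1, for example for well above background. Between 9257 (control replicate 1) and 13009 circRNA probes per array were well above background, and no spot of a circRNA probe was saturated.

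The median signal was quantile normalized over all spots and log2 transformed. Spots marked as not uniform (17 of circRNA probes) were set to missing, none of them of Slit1 or Epha7. Probes detected on at least 3 of 6 arrays (12499) were fitted with lmFit and eBayes (limma 3.58.1, R 4.3.3), with Benjamini-Hochberg adjustment over all of them. The normalization and the fit were also run on simulated data with independent noise and no effect of slide position. That run therefore says nothing about the unbalanced slide. Figures were drawn with matplotlib 3.10.9.

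The circRNAs and gene lists were chosen with earlier results of these data known. Host genes were read for 1257 circRNAs from the study's annotation, in a shortened list of those whose mean was higher in the surgery group. The Slit1 probe was assigned through the fold change and p printed for its circRNA, which 1 probe matched, so this assignment is not independent of the difference. The build was taken as GRCm38 because 1024 of 1027 exonic circRNAs (99.7%) lay inside the RefSeq gene of their transcript on GRCm38.p6. The circRNAs named are the pair, those of Slit, netrin, Eph receptor, Dcc and Srgap genes, others of the axon guidance list that were called, and the 3 profiles most correlated with each of the pair. Other names were picked with their values in view. A further cell type marker gene is not reported here, for a reason unrelated to its values.

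The alternatives were the methods' t-test, other normalizations, normexp background correction, the processed signal, other filters, control spots left out, a block for replicate number or for slide row, a covariate for slide column, and each array left out.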

Additional observations from a re-analysis of the deposited data

How the results depend on the processing

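The Slit1 log2 difference of 0.89 moved to 1.32 with the processed signal scaled to the 75th percentile, 1.41 with the processed signal quantile normalized, 0.65 with a normexp offset of 50 and 0.59 with slide column as a covariate, and that of Epha7 from 0.41 to 0.62 with the processed signal quantile normalized and 0.08 with slide column. Under the other alternatives, 9 for Slit1 and 11 for Epha7, each moved by less than the spread between replicates. Neither changed sign under any alternative. Among all alternatives, Epha7 fell below 1.3-fold without normalization (1.26-fold), with a normexp offset of 50 (1.20-fold) and with slide column (1.06-fold). With each array left out, Slit1 ranged from 0.80 to 1.05 and Epha7 from 0.29 to 0.50, below 1.3-fold without surgery replicate 1 (1.29-fold) or control replicate 3 (1.22-fold). The count of probes at an adjusted p under 0.05, 6 with limma (2586 at an unadjusted p under 0.05), was 0 with the methods' t-test, with a normexp offset of 50, with a detection filter on all 6 arrays, with the slide row block and with slide column. It was 157 without normalization, 13 with cyclic loess and with the 75th percentile, 84 with the quantile normalized processed signal, 59 with a normexp offset of 16, and 10 without control spots or without a filter. It ran from 0 to 77 with 1 array left out, 14 without surgery replicate 1, 77 without control replicate 1 and 0 without any of the others. The 766 probes past 1.3-fold and unadjusted p became 1334 without normalization, 2857 with the 75th percentile, 2398 with the quantile normalized processed signal, 274 with a normexp offset of 50 and 1219 with the slide row block, and 601 to 1189 with 1 array left out, the highest without control replicate 1. Of these calls 68.4% were higher after surgery, against 38.4% with the 75th percentile and 55.6% with the quantile normalized processed signal. The 1 axon guidance circRNA called, with 524 called higher over all probes, became 8 without normalization (973) and with the 75th percentile (1097). The count was 4 with the quantile normalized processed signal (1334), and 3 with a normexp offset of 16 (683) and with the slide row block (748). It was 0 with a normexp offset of 50 (171) and with the filter on all 6 arrays (360), which left the Srgap1 probe out. With 1 array left out it ran from 1 to 6, with 3 without surgery replicate 1, surgery replicate 2 or control replicate 2 and 6 without control replicate 1. The cause of these shifts was otherwise not tested. Replicate numbers were not taken to pair the mice, since the paper speaks of randomly selected pairs without saying which mice formed them. Deviations from the group means correlated at 0.28, 0.25 and -0.02 between same-numbered arrays. Between surgery and control arrays of different number they correlated at -0.36 to 0.17. These values do not settle whether the mice were paired. With the replicate block the differences were 0.89 for Slit1 and 0.41 for Epha7, 199 probes had an adjusted p under 0.05, 797 passed the fold change rule, and 2 of the axon guidance circRNAs were called. Signal over background limits the dim probes most, such as that of Srgap1, which was detected on 1 of 3 control arrays.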
